A study of Mus musculus with 9 samples.

Results

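The conjugating enzymes of phase II metabolism were followed in the liver of C57BL/6J mice, an inbred laboratory strain. Members were all gene symbols of 3 families by their names: glutathione S-transferases (Gst), UDP-glycosyltransferases of families 1 to 3 (Ugt) and cytosolic sulfotransferases (Sult). The rule found 57 of the 19329 symbols in the deposited tables, with 22 in Gst, 20 in Ugt and 15 in Sult. The rule used names and no measured value, but the families were chosen with earlier results of these data known. Liver RNA came from 9 mice, 5 kept on chow (chow 1 to 5) and 4 given a high-sucrose diet (HSD 1 to 4) for 3 weeks starting at 8 weeks of age, with livers collected at 11 weeks. No allele or drug was named for either diet, and the wild-type strain was shared by both. The mice served as a dietary model of fatty liver, with 1 animal behind each library. Sex is not stated in the sources used here, and Y-linked transcripts were found in all 9 livers.

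Phase II enzymes attach a water-soluble group to drugs, hormones, bilirubin, bile acids and reactive by-products of metabolism, so that these can leave through bile or urine. Glutathione S-transferases add the tripeptide glutathione, UDP-glucuronosyltransferases add glucuronic acid from UDP-glucuronate, and sulfotransferases add sulfate from the donor PAPS. The liver is the main site of all these reactions, and most of the genes lie in arrays of close copies. Their transcription is known to respond to the receptors CAR, PXR and AhR and to the stress-responsive factor NRF2.

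Estimated counts summed to 12769668 to 25913869 per library, with a median of 17791258 on chow and 20282685 on HSD. Among the hepatocyte markers, *Alb* averaged 71086 CPM and *Apoa2*, the lowest of the 9 tested, 3771 CPM on chow. CPM is a gene's share of all counts in a library, scaled by TMM. The markers summed to 91220 to 153575 CPM on chow and 119205 to 154215 CPM on HSD. A pair of chow livers stood apart. The mean log2 CPM of 21 acute phase genes was 10.9 in chow 1 against 6.46 to 7.64 in the other 8 livers. The log2 difference between the clock genes *Arntl* and *Dbp* was -3.27 in chow 1 and -1.56 in chow 3, whereas the remaining chow livers gave -6.41 to -6.04 and the HSD livers -4.48 to -1.93. In bulk RNA, fewer cells of a type and less RNA per cell cannot be told apart.

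Most conjugating enzymes did not pass the test of diet, and those that did were mainly lower on HSD. Of the 57 members, 44 had enough counts to be tested, and 8 passed edgeR's quasi-likelihood test at an adjusted p under 0.05 over all genes. The lower genes were *Sult5a1*, *Gstp1*, *Gsta2*, *Gsta4*, *Sult1b1* and *Gstt2*, and the higher genes were *Gstt3* and *Ugt1a5*. These 8 were 18.2% of the members tested, whereas 6.67% of all 12091 genes tested passed. Of members tested, 6 were lower and 2 higher, and the corresponding shares over all genes were 3.23% lower and 3.44% higher. An unadjusted p under 0.05 was reached by 21 members, 15 of them lower, and by 23.7% of all genes. The diets did not overlap in CPM for 9 members, or 20.5% of those tested, against 11.3% of all genes. Among these, HSD lay below chow for 7 members and above for 2, while 5.51% of all genes lay below and 5.84% above. A log2 fold change (log2FC, HSD minus chow, given ± its standard error, SE) beyond 0.5 in size was seen in 14 members, or 31.8%, against 14.2% of all genes. The median log2FC of the members was -0.08 and that of all genes -0.00, so the members as a whole were not displaced in 1 direction by much.

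**Figure D1:**
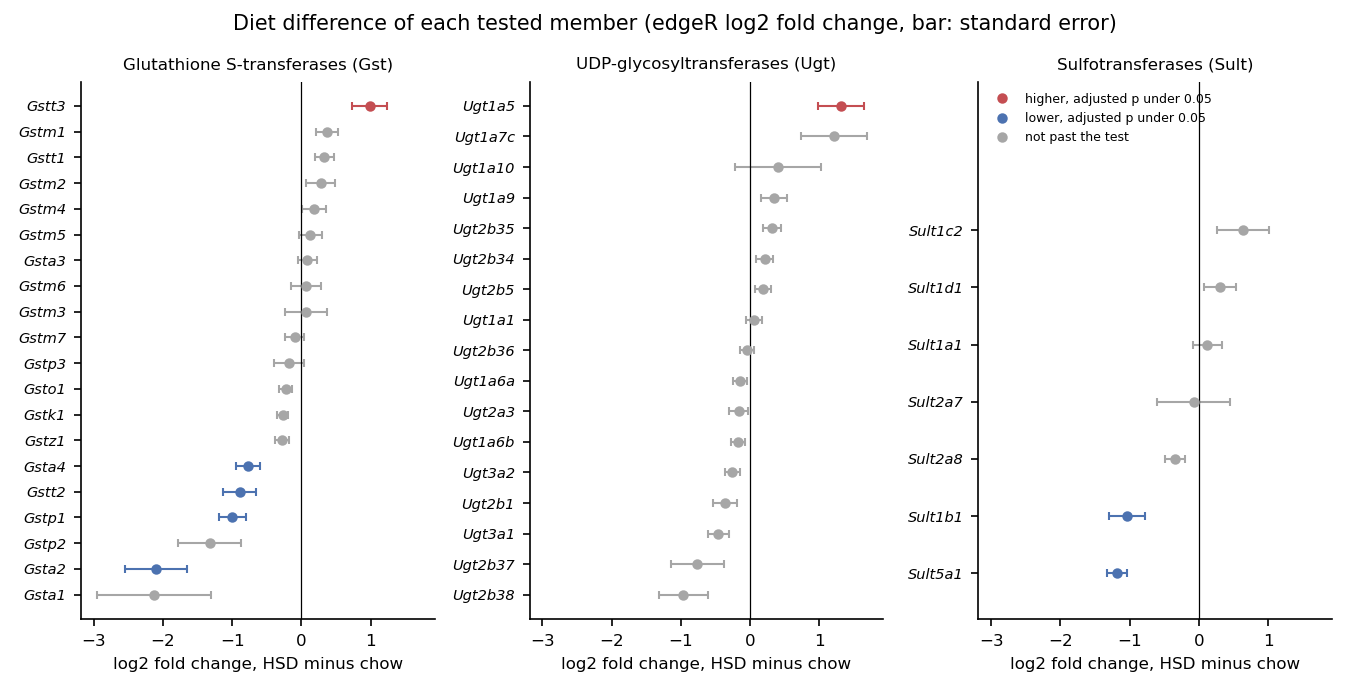
Log2FC on HSD relative to chow (x axis) of each of the 44 tested members, in 1 panel per family, with bars for the standard error by edgeR. The 6 lower members (blue) and 2 higher members (red) passed an adjusted p of 0.05, and the mu class (Gstm) and most Ugt genes sit close to 0.

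The calls were not equally stable. Over 25 alternative settings, *Sult5a1* passed in 24 and *Gstp1* in 23. *Gsta2* and *Gsta4* each passed in 17, *Gstt3* in 16, *Ugt1a5* in 15, *Sult1b1* in 12 and *Gstt2* in 10. The direction of all 8 was the same in every one of these settings. In the setting with near copies summed, *Ugt1a5*, *Gstp1* and *Gsta2* were read from the sum with their copies and not by themselves. Some of the 25 settings were added after the values were seen. The library names in the labels fall into a first series of 4 chow and 2 HSD livers and a second of 1 chow and 2 HSD livers. All 8 genes had the same direction within both series by their mean CPM. In the first and second series, *Sult5a1* averaged 15.3 and 15.7 CPM on chow and 6.42 and 7.08 CPM on HSD, *Gstp1* 1233 and 1093 CPM on chow and 591 and 619 CPM on HSD. *Gstt3* averaged 37.7 and 46.8 CPM on chow and 64.5 and 92.1 CPM on HSD, and *Ugt1a5* 73.8 and 83.5 CPM on chow and 199.6 and 176.8 CPM on HSD. With the series as a covariate, *Sult5a1*, *Gstp1*, *Gsta2* and *Gsta4* passed, and 4.57% of all genes were called. In that fit *Gstt3*, *Ugt1a5*, *Gstt2* and *Sult1b1* did not pass (adjusted p = 0.0822, 0.0594, 0.0782 and 0.0513 by edgeR). In the first series alone no member passed, 0.275% of all genes were called, and *Sult5a1* came nearest (adjusted p = 0.0594 by edgeR).

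Without chow 1 and chow 3 together, a setting chosen after the values were seen, all 8 genes passed again, and 13 members were lower and 2 higher. In the same fit 8.76% of all genes were called, against 6.67% with all livers. Without chow 1 alone 11 members were lower and 2 higher, with 8.07% of all genes called, and without chow 3 alone 7 were lower and none higher, with 4.98% of all genes called.

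The promoters of the most stable lower genes, *Sult5a1* and *Gstp1*, and of both higher genes are shown so that their sequence can be set beside their response. They are the 250 bases before the start site in RefSeq on GRCm38.p6, read 5′ to 3′ on the strand of the gene, and capitals mark GCGTG, the core of the xenobiotic response element bound by AhR. *Gstt3* has 2 start sites in RefSeq, and the window of the upstream one is given.
Gstp1, chr19:4037913-4038162, minus strand: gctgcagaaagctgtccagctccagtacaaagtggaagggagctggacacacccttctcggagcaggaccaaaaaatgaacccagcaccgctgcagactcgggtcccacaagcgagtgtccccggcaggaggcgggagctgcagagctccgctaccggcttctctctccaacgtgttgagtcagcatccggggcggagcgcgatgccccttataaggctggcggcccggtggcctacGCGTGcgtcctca
Sult5a1, chr8:123158281-123158530, minus strand: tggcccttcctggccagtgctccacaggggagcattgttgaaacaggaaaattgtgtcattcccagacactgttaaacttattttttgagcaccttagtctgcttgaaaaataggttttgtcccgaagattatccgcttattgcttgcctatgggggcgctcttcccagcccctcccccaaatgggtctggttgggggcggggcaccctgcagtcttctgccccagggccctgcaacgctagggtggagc
Gstt3, chr10:75781423-75781672, minus strand: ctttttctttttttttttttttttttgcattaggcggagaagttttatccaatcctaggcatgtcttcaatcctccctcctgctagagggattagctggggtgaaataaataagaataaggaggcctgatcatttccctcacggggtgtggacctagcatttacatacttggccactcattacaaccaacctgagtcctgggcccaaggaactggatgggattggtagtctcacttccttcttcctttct
Ugt1a5, chr1:88165762-88166011, plus strand: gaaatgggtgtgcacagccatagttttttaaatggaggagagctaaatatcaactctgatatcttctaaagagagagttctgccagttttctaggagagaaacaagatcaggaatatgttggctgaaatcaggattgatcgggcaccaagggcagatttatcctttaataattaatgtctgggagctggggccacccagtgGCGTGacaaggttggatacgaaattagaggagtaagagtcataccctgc
The core GCGTG lay at bases -13 to -9 before the start site of *Gstp1* and at -49 to -45 before that of *Ugt1a5*. It also lay at -7 to -3 before the start site of *Gsta2* and at -196 to -192 before 1 of the 2 start sites of *Sult1b1*. Of the called genes with a window, 3 lower genes and 1 higher gene thus held it. These start sites are those of RefSeq. By the GENCODE spans, the cores of the 3 lower genes lie inside the annotated gene, and that of *Ugt1a5* lies before it. The *Gsta2* window, chr9:78347146-78347395, falls within a gene span of chr9:78331018-78355788. GCGTG was found in neither window of *Gstt3* and not in that of *Sult5a1*. On either strand, GCGTG occurred in 28.2% of all 32851 RefSeq promoters of this length and in 11 of the 60 promoters of 49 members, or 18.3%. The core of the antioxidant response element, TGACNNNGC, occurred in 10.2% of all promoters and in 3 of the 60. These were those of *Gsta3*, *Gstm5* and *Gstm7*, none of which passed the test. No other spelling of this core was searched for. The stretch tgagtcagc in the *Gstp1* window, which differs from it by 1 base, was therefore not counted. A match of letters is a description of the sequence and not a binding site.

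*Gstp1*, the main pi-class transferase of mouse liver, was lower on HSD. It read 1430, 1146, 1422, 934 and 1093 CPM in chow 1 to 5 and 786, 396, 604 and 634 CPM in HSD 1 to 4. Each HSD liver was below each chow liver. Means of 1205 ± 216 CPM over the 5 chow livers and 605 ± 160 CPM over the 4 HSD livers (± SD) gave a log2FC of -0.99 ± 0.19 (SE, adjusted p = 0.0115 by edgeR).

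The order of the family differed between the diets. On the TPM scale, which corrects for transcript length, *Gstp1* was the highest of all 57 members in each of the 5 chow livers, at 2281 to 3071 TPM. On HSD it was highest in HSD 1 alone (2005 TPM), and in the other 3 livers *Gstm1* led. *Gstp1* made up 38.4% ± 8.42 (SD, 5 livers) of the summed Gst TPM on chow and 22.4% ± 5.72 (SD, 4 livers) on HSD. Of its 31-base sequences, 38.5% also occur in other genes, and the sum of *Gstp1* and its near copy *Gstp2* gave nearly the same log2FC of -0.995 (adjusted p = 0.0112 by edgeR). *Gstp1* spans chr19:4035407-4037985 on GRCm38, next to *Gstp2* and *Gstp3*, whose log2FC values of -1.32 and -0.18 did not pass in edgeR, whereas DESeq2 called *Gstp2* lower. *Gstp2* was also lower in edgeR without chow 3 and without chow 1 and chow 3. The call of *Gstp1* was lost in the first library series (adjusted p = 0.184 by edgeR) and in limma on log2(TPM + 1) over all genes (adjusted p = 0.0669).

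In the alpha class, *Gsta2* and *Gsta4* on chromosome 9 were lower, and the abundant *Gsta3* on chromosome 1 did not pass. *Gsta1*, next to *Gsta2*, had at most 36 counts and a log2FC of -2.13 that did not pass (adjusted p = 0.141 by edgeR). *Gsta2* had the largest change of the members that passed. It read 4.33, 28.5, 8.13, 20.4 and 15.2 CPM in chow 1 to 5 and 4.29, 3.73, 2.59 and 3.57 CPM in HSD 1 to 4. The diets touched, with chow 1 just above HSD 1, and the chow livers themselves spread several-fold. Its log2FC was -2.10 ± 0.45 (SE, adjusted p = 0.0182 by edgeR). In *Gsta2* 60.7% of 31-base sequences are shared, with 44.7% in *Gsta1*, 43.6% in *Gm10639* and 37.7% in *Gm3776*. The sum of *Gsta1* and *Gsta2* had a log2FC of -2.10 (adjusted p = 0.0194 by edgeR), and the copies outside the family were not summed, so the level of *Gsta2* is uncertain to that extent. The call was lost without HSD 1, HSD 3 or HSD 4 (adjusted p = 0.0549, 0.0568 and 0.0606 by edgeR).

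*Gsta4*, which detoxifies hydroxynonenal, an aldehyde from lipid peroxidation, read 22.2, 43.2, 24.7, 35.5 and 31.7 CPM in chow 1 to 5. On HSD it read 19.2, 15.9, 20.3 and 18.2 CPM, with all 4 livers below chow. The log2FC was -0.78 ± 0.17 (SE, adjusted p = 0.0234 by edgeR), and none of its 31-base sequences occur in another gene. The call was lost without HSD 1, HSD 2 or HSD 4 (adjusted p = 0.0671, 0.0658 and 0.0700 by edgeR). *Gsta3*, known for conjugating the epoxide of aflatoxin, was with *Gstm1* the most abundant member after *Gstp1*, at a mean of 1397 TPM. Its levels of 713 to 1111 CPM on chow and 934 to 1080 CPM on HSD overlapped, with a log2FC of 0.08 ± 0.14, which turned to -0.0088 without chow 1 and -0.10 without chow 1 and chow 3.

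The theta class held neighbours that went opposite ways. *Gstt3*, *Gstt1*, *Gstt4* and *Gstt2* lie within 63.3 kb on chromosome 10. *Gstt3* was higher on HSD, with 25.4, 49.9, 23.0, 52.5 and 46.8 CPM in chow 1 to 5 and 56.2, 72.9, 85.5 and 98.7 CPM in HSD 1 to 4. Each HSD liver was above each chow liver, by a small margin between chow 4 and HSD 1. The log2FC was 0.99 ± 0.25 (SE, adjusted p = 0.0366 by edgeR). The call was lost without chow 3, chow 5, HSD 2, HSD 3 or HSD 4 (adjusted p = 0.0560, 0.0527, 0.0660, 0.0896 and 0.115 by edgeR). Of its 31-base sequences, 12.8% also occur in *Gm20441*, which overlaps it and had a median estimated count of 0.

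*Gstt2* was lower on HSD. It read 33.6, 50.1, 24.3, 62.9 and 55.7 CPM in chow 1 to 5 and 24.3, 30.5, 19.5 and 23.2 CPM in HSD 1 to 4. The diets overlapped, because chow 3 lay among the HSD livers and chow 1 just above them. The log2FC was -0.89 ± 0.24 (SE, adjusted p = 0.0482 by edgeR), close to the threshold. The call held in 2 of the 9 fits that left out 1 liver, those without chow 1 (adjusted p = 0.0287 by edgeR) and chow 3 (0.0124), and in the other 7 the adjusted p was 0.0587 to 0.128. *Gstt1*, the most abundant theta gene at 322 TPM, read 143 to 210 CPM on chow and 194 to 253 CPM on HSD, a log2FC of 0.33 (adjusted p = 0.159 by edgeR).

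The mu class on chromosome 3 held no call. None of its 7 genes passed, and their log2FC values ran from -0.10 to 0.37. DESeq2 called none either, and 1, *Gstm1*, had an unadjusted p under 0.05 by edgeR. *Gstm1*, the most abundant of them at 1394 TPM, read 736, 1359, 886, 1096 and 1102 CPM in chow 1 to 5 and 1256, 1394, 1305 and 1397 CPM in HSD 1 to 4. The HSD livers were alike and close to the highest chow liver, chow 2. Its log2FC was 0.37 ± 0.16 (SE, adjusted p = 0.175 by edgeR).

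The kappa, omega and zeta genes lay below chow on HSD without passing in edgeR. *Gstz1*, the maleylacetoacetate isomerase of tyrosine breakdown, read 561 to 641 CPM on chow and 427 to 528 CPM on HSD, with the diets apart. Its log2FC of -0.28 ± 0.10 did not pass (SE, adjusted p = 0.109 by edgeR). *Gstk1*, found in mitochondria and peroxisomes, and *Gsto1*, a thioltransferase, were likewise below chow in every HSD liver, with log2FC values of -0.27 and -0.23 (adjusted p = 0.0715 and 0.160 by edgeR). DESeq2 called *Gstz1* and *Gstk1* lower. *Gstk1* and *Gsto1* were named after their values were seen. These 3 differences are small against the scale: in TPM, where the median of all genes shifts by 0.14 on the log2(TPM + 1) scale, *Gstz1* overlapped at 605 to 844 TPM on chow and 625 to 720 TPM on HSD.

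**Figure D2:**
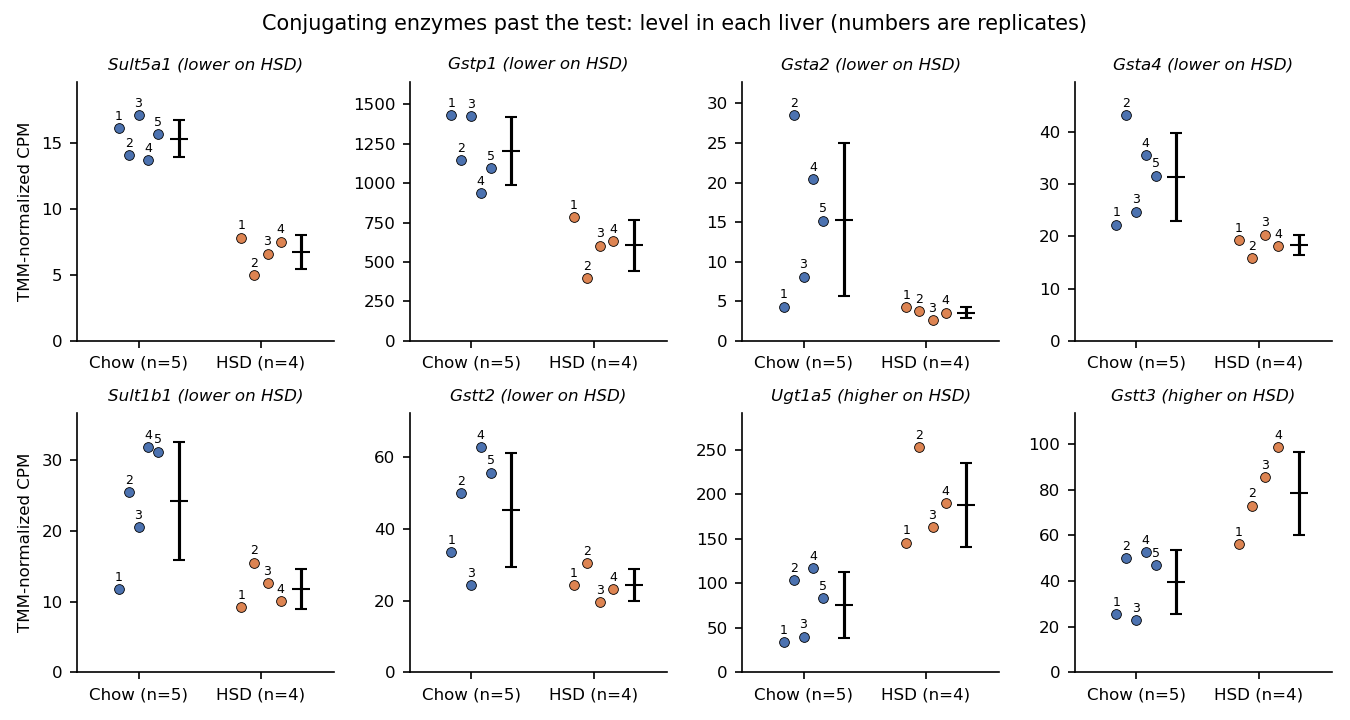
TMM-normalized CPM (y axis, from 0) of the 8 members past the test in each chow (blue) and HSD (orange) liver, with replicate numbers, and the mean with SD beside each group. For *Gsta2*, *Gsta4*, *Sult1b1*, *Gstt2*, *Gstt3* and *Ugt1a5*, chow 1 and chow 3 are the 2 lowest chow livers, which brings them near HSD in the lower genes and far from it in the higher genes.

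Among the UDP-glycosyltransferases, 1 of 17 tested genes was higher and 0 lower. DESeq2 called 1 lower, *Ugt3a1*, and 3 had an unadjusted p under 0.05 with a log2FC below 0 by edgeR. *Ugt1a5*, a gene of the Ugt1a locus, read 34.3, 104, 40.1, 117.2 and 83.5 CPM in chow 1 to 5 and 146, 253, 163 and 190 CPM in HSD 1 to 4. Each HSD liver was above each chow liver. The log2FC was 1.31 ± 0.33 (SE, adjusted p = 0.0353 by edgeR). The call was lost without chow 3 (adjusted p = 0.0598 by edgeR), without chow 5 (0.0602) and without any of the 4 HSD livers (0.0645 to 0.0937).

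The Ugt1a locus on chromosome 1 makes its proteins from alternative first exons joined to a shared set of later exons, so reads from the shared part cannot be assigned by position. *Ugt1a5* shares 65.3% of its 31-base sequences with other genes and *Ugt1a1* 81.3%. Summed over its 9 genes the locus did not pass, with a log2FC of 0.20 ± 0.12 (SE, adjusted p = 0.361 by edgeR) and 615 to 941 CPM on chow against 884 to 1004 CPM on HSD. Within the locus, *Ugt1a5* made up 9.29% ± 3.70 (SD, n = 5) of the summed TPM on chow and 20.6% ± 4.01 (SD, n = 4) on HSD. *Ugt1a1*, the enzyme that conjugates bilirubin, made up 49.6% ± 2.47 (SD, n = 5) and 44.8% ± 1.52 (SD, n = 4). *Ugt1a1* itself overlapped between diets at 311 to 449 CPM on chow and 391 to 431 CPM on HSD, with a log2FC of 0.06 ± 0.11. That value was -0.022 without chow 1.

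**Figure D3:**
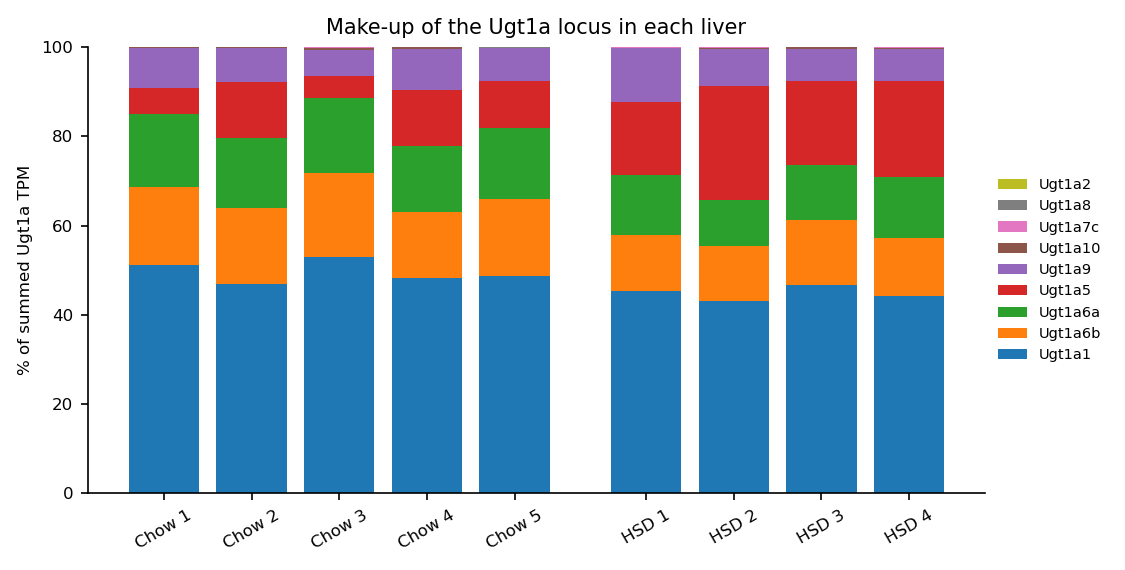
Share of the summed Ugt1a TPM (y axis, percent) taken by each of the 9 genes of the locus in each liver. The red *Ugt1a5* segment is larger in all 4 HSD livers than in any of the 5 chow livers, and *Ugt1a1* remains the largest segment throughout.

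The Ugt2b genes, which conjugate steroids, bile acids and drugs, did not pass in any of 7 cases in edgeR or DESeq2, and 2 had an unadjusted p under 0.05 by edgeR. The most abundant Ugt member was *Ugt2b5* at a mean of 436 TPM, followed by *Ugt2b36* at 347 and *Ugt2b1* at 296 TPM, and their ranges over the 9 livers overlapped. *Ugt2b5* read 496 to 673 CPM on chow and 584 to 701 CPM on HSD, a log2FC of 0.19 ± 0.12. *Ugt2b36* had a log2FC of -0.05 ± 0.10, which became 0.13 on the log2(TPM + 1) scale. *Ugt2b1* read 425 to 733 CPM on chow and 388 to 606 CPM on HSD, a log2FC of -0.37 ± 0.17 (SE, adjusted p = 0.215 by edgeR). It was 1 of the genes that passed without chow 1 and chow 3, with a log2FC of -0.47 and an adjusted p of 0.0487 by edgeR.

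*Ugt2b38* read 13.2 to 49.2 CPM on chow and 9.87 to 19.8 CPM on HSD, with a log2FC of -0.96 ± 0.35 (SE, adjusted p = 0.123 by edgeR). It shares 52.9% of its 31-base sequences, and summed with *Ugt2b5* and *Ugt2b37* the value was 0.15. The Ugt3a enzymes, which use other sugars than glucuronic acid, both had a log2FC below 0 that did not pass in edgeR. *Ugt3a2* read 277 to 381 CPM on chow and 253 to 303 CPM on HSD, a log2FC of -0.26 (adjusted p = 0.168 by edgeR). *Ugt3a1* read 70.8 to 95.9 CPM on chow and 41.4 to 73.0 CPM on HSD, a log2FC of -0.46 (adjusted p = 0.0965 by edgeR).

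Of 7 sulfotransferases tested, 2 were lower. *Sult5a1* had the smallest p of all members. It read 16.2, 14.1, 17.1, 13.7 and 15.7 CPM in chow 1 to 5 and 7.83, 5.01, 6.62 and 7.53 CPM in HSD 1 to 4. The diets were well apart, and the spread within each was small. Means of 15.4 ± 1.42 CPM over 5 chow livers and 6.75 ± 1.27 CPM over 4 HSD livers (± SD) gave a log2FC of -1.18 ± 0.14 (SE, adjusted p = 0.00105 by edgeR). In *Sult5a1*, as in *Gstp1*, chow 1 and chow 3 were the 2 highest chow livers, whereas they were the 2 lowest in the other 4 lower genes. *Sult5a1* lies at chr8:123140192-123158315 on the minus strand, and the annotated gene *Gm20388* overlaps it on the opposite strand. *Gm20388* had a median estimated count of 252 and a log2FC of 0.44 (adjusted p = 0.757 by edgeR), and no source used here says whether the libraries kept strand.

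*Sult1b1*, which sulfates phenols and thyroid hormones, read 11.8, 25.5, 20.5, 31.9 and 31.2 CPM in chow 1 to 5 and 9.24, 15.5, 12.6 and 10.1 CPM in HSD 1 to 4. The diets overlapped because chow 1 lay among the HSD livers. The log2FC was -1.03 ± 0.26 (SE, adjusted p = 0.0356 by edgeR). The call was lost without chow 2, chow 4, chow 5, HSD 1, HSD 3 or HSD 4 (adjusted p = 0.0607, 0.0715, 0.0692, 0.113, 0.0774 and 0.108 by edgeR). *Sult1b1* lies among 12 members on chromosome 5, and no Ugt2 gene of that cluster passed.

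The abundant sulfotransferases did not pass. *Sult2a8*, a bile acid sulfotransferase of mouse liver, averaged 427 TPM, *Sult1a1*, the phenol sulfotransferase, 319 TPM and *Sult1d1*, which acts on catecholamines, 58.4 TPM. The ranges of *Sult2a8* and *Sult1a1* over the livers overlapped, whereas the highest *Sult1d1* liver was below the lowest of either. *Sult2a8* read 395 to 634 CPM on chow and 389 to 519 CPM on HSD, with a log2FC of -0.35 (standard error 0.15, adjusted p = 0.184 by edgeR, and 0.0367 without chow 1 and chow 3). *Sult1a1* and *Sult1d1* had log2FC values of 0.12 ± 0.21 and 0.30 ± 0.23.

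The 13 members that were not tested had at most 14 counts in any liver. They were *Gsto2*, *Gstt4*, *Ugt2a2*, *Ugt1a8*, *Ugt1a2*, *Sult1e1*, *Sult4a1*, *Sult2b1*, *Sult2a1*, *Sult3a1*, *Sult2a2*, *Sult6b1* and *Sult6b2*, and the last 3 were listed at 0 in all livers. In this list *Sult1e1* is the estrogen sulfotransferase, and *Sult2a1* and *Sult3a1* are known as female-predominant in mouse liver. A count of 0 allowed up to 3 counts, or 0.116 to 0.235 CPM depending on the library, and this limit covers counting error only.

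Side by side, the Gst family held 4 lower and 1 higher of 20 tested genes, or 25.0%. The Ugt family held 1 higher of 17, or 5.88%, and the Sult family 2 lower of 7, or 28.6%. The 17 include the 2 Ugt3a genes, which use other sugars than glucuronic acid. Over all genes 6.67% passed. Their median log2FC values were -0.14, -0.05 and -0.07. The difference between the families was not tested, since the members of a family share sequence, locus and livers.

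The summed output of each family overlapped between the diets. Gst summed to 7008 ± 846 TPM (SD, n = 5) on chow and 6759 ± 309 TPM (SD, n = 4) on HSD. Ugt summed to 2079 ± 370 TPM on chow and 2323 ± 84.7 TPM on HSD, and Sult to 843 ± 193 TPM and 846 ± 98.7 TPM. On the TMM-scaled CPM, HSD livers stood at 0.934, 0.999 and 0.900 times the chow mean for Gst, Ugt and Sult. Within Gst, the pi class went from 2672 ± 290 TPM (SD, n = 5) on chow to 1548 ± 424 TPM (SD, n = 4) on HSD without overlap, and the mu class from 1627 ± 475 TPM to 2231 ± 126.8 TPM with overlap. The chow livers were more spread than the HSD livers in all 3 family sums.

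**Figure D4:**
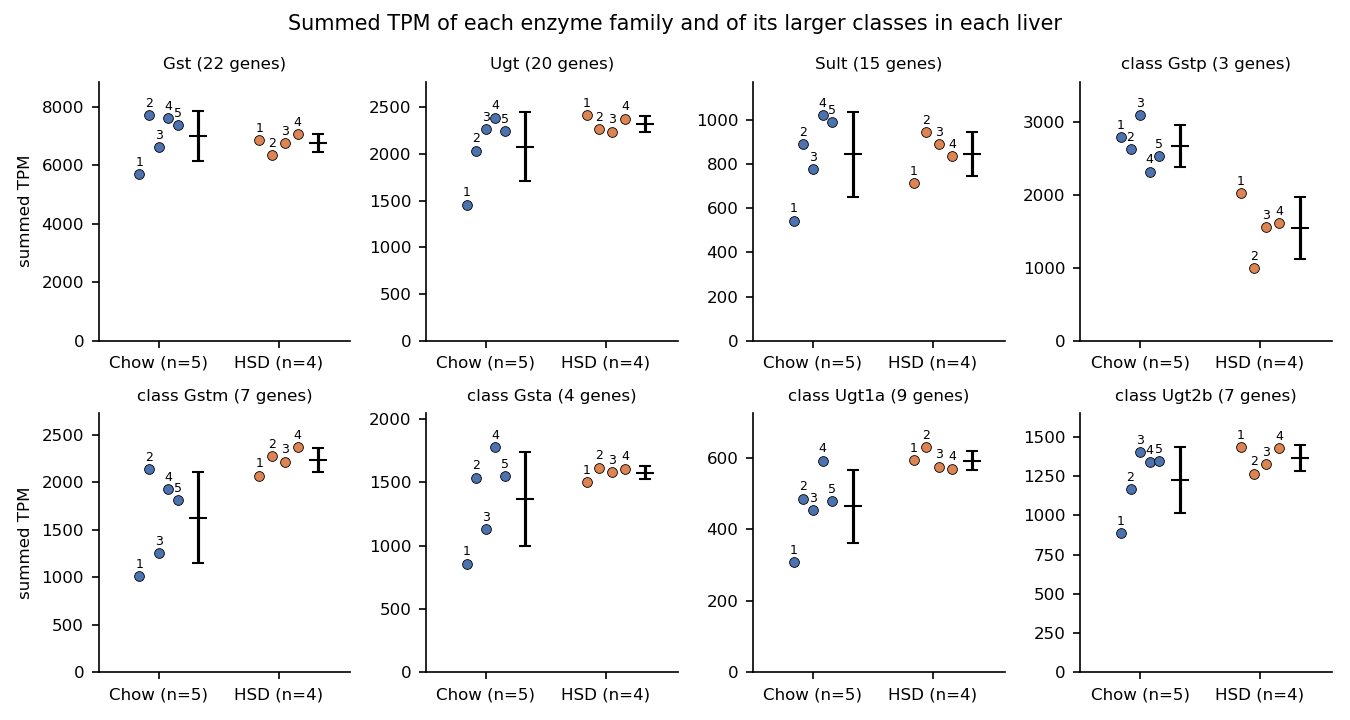
Summed TPM (y axis, from 0) of the 3 families and of their larger classes in each chow (blue) and HSD (orange) liver, with the mean and SD beside each group. The pi class (Gstp) is lower in all 4 HSD livers, the other sums overlap, and chow 1 is the lowest chow liver in each family sum.

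Glutathione transferases followed the pair of chow livers that stood apart. In 16 of the 20 tested Gst genes, or 80.0%, chow 1 and chow 3 held the 2 lowest CPM values of the chow group, against 17.0% of all genes tested. The same held for 4 of 17 Ugt genes (23.5%) and 4 of 7 Sult genes (57.1%). With the *Arntl* to *Dbp* difference as a covariate, a setting chosen after the values were seen, all 8 calls held and *Gstm1*, *Gstm2*, *Gstm4* and *Gstt1* were also higher and *Ugt2b38* lower, while 7.25% of all genes were called. With the mean of the acute phase genes as the covariate instead, *Gstt3* no longer passed (adjusted p = 0.0659 by edgeR) and 11 members were lower, while 7.58% of all genes were called. The part of clock state or acute phase in these differences was not tested.

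Genes that supply the cosubstrates also differed in part. Of 10 tested genes of glutathione supply, 1 was higher and 2 were lower. *Gclc*, the catalytic subunit of the rate-limiting step of glutathione synthesis, had a log2FC of 0.61 ± 0.14. *Gss*, the glutathione synthetase, had -0.47 ± 0.10 and *Cth*, which makes cysteine by transsulfuration, -1.28 ± 0.16, with a mean of 318 ± 71.2 CPM in chow livers and 131 ± 13.6 CPM in HSD livers (± SD, n = 5 and 4). For glucuronidation, 1 of 7 genes was lower, or 14.3%, a single call in a short list. This was *Ugdh*, which makes UDP-glucuronate, at 111 ± 6.58 CPM in chow livers and 72.03 ± 11.5 CPM in HSD livers (± SD, n = 5 and 4), with log2FC -0.63 (adjusted p = 0.00739 by edgeR).

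For sulfation, 1 of 8 genes was higher and 1 lower, or 25.0% called, against 6.67% of all genes. *Slc26a1*, a sulfate transporter, had a log2FC of -0.56 ± 0.09, and *Impad1*, which breaks down the by-product of sulfation in the Golgi, 0.46 ± 0.08. None of 7 tested genes of membrane-bound glutathione transferases and related proteins passed edgeR, and none had an unadjusted p under 0.05. The 7 include *Eef1g*, *Clic1* and *Ptges2*, which are not named as glutathione transferases. DESeq2 called 1 lower, *Mgst1*, the most abundant of them. *Mgst1* averaged 2122 CPM on chow and 1853 CPM on HSD, with every HSD liver below chow.

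Conjugation by other groups and the later steps showed more lower than higher calls. Over all genes 6.67% passed, 3.23% lower and 3.44% higher. Of 12 genes of methyl, acetyl, glycine and taurine conjugation, 4 were lower and 1 higher, or 41.7% called. The methyltransferase *Nnmt* had a log2FC of -2.04 ± 0.37, *Nat8*, the acetylase of cysteine conjugates that finishes mercapturic acids, -1.52 ± 0.21, *Keg1* -1.01 ± 0.14 and the thiopurine methyltransferase *Tpmt* -0.39 ± 0.11. The arsenic methyltransferase *As3mt* had 0.42 ± 0.10. Of 10 deconjugating genes, the glucuronidase *Gusb* was higher at 0.32 ± 0.08, and the aminoacylase *Acy3* and the carboxylesterase *Ces2a* were lower at -0.51 ± 0.09 and -0.67 ± 0.15. Of 11 export transporters, *Abcc6* was lower at -0.39 ± 0.10, or 9.09% called, near the share of all genes. An unadjusted p under 0.05 by edgeR was reached by 1 transporter above 0 and 1 below 0.

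Among 14 receptors and factors that regulate these enzymes, *Nr1i2*, which encodes PXR, was lower. Its log2FC was -0.35 ± 0.10 (SE, adjusted p = 0.0472 by edgeR). The other 13 did not pass, among them *Nr1i3*, which encodes CAR, at -0.81 ± 0.27 (SE, adjusted p = 0.0952 by edgeR). An unadjusted p under 0.05 by edgeR was reached by 3 of the 14 below 0 and 1 above 0. The call was 7.14% of this list, against 6.67% of all genes. Of 10 CAR and PXR target genes outside the 3 families, 2 were higher, *Cyp2b10* with a log2FC of 3.61 ± 0.40 and *Cyp2c29* with 1.31 ± 0.15. In edgeR 5 of the 10 had a log2FC below 0 and none of them passed, though 2 had an unadjusted p under 0.05. The other 5 were above 0, 3 of them with an unadjusted p under 0.05. DESeq2 also called 1 lower, *Cyp3a13*. Of 15 NRF2 target genes, 5 were higher in edgeR, namely *G6pdx* at 3.58, *Me1* at 1.83 and *Pgd* at 1.13, enzymes that make NADPH, and *Gclc* and *Tkt* (0.48). In edgeR 7 of the 15 had a log2FC below 0 and none of them passed, though 4 had an unadjusted p under 0.05. Of those above 0, 6 had an unadjusted p under 0.05. *Nqo1* and *Gclm* were among those below 0, at -0.38 and -0.17 (adjusted p = 0.298 and 0.237 by edgeR). DESeq2 called 6 higher and 1 lower, the heme oxygenase *Hmox1* (log2FC -0.65, adjusted p = 0.0957 by edgeR). *Gclc* is counted in this list and in glutathione supply. Of 5 AhR target genes, *Cyp1a2* was lower at -0.72 ± 0.13, and the other 4 did not pass. In edgeR 3 of the 5 had a log2FC below 0 and 2 above 0. Those above 0 were *Cyp1a1* at 0.94 ± 0.41 and *Cyp1b1* at 0.69 ± 0.32, with at most 78 and 26 counts. Both had an unadjusted p under 0.05 (adjusted p = 0.185 and 0.206 by edgeR), so the list did not go 1 way. The targets of these factors among the members were left out of the lists.

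Markers of other cells mostly did not pass, while 6.67% of all genes tested did. In edgeR none of the tested genes passed for hepatocytes (9 genes, 2 with an unadjusted p under 0.05), bile duct cells (8 genes, 2), Kupffer cells (10 genes, 6), endothelial cells (10 genes, 1), stellate cells (10 genes, 4) or lymphocytes (4 genes, 1). DESeq2 called the hepatocyte gene *Apoa2* lower, and the bile duct gene *Epcam* and the stellate genes *Lrat* and *Reln* higher. The summed Kupffer level was 206.5 to 470 CPM on chow and 129 to 260 CPM on HSD, and all 10 genes had log2FC values below 0, from -0.87 to -0.30. The summed levels of bile duct markers were 47.3 to 96.5 CPM on chow and 63.5 to 86.4 CPM on HSD, those of endothelial markers 209 to 272 and 228 to 249 CPM, and those of stellate markers 206 to 265 and 255 to 334 CPM. Lymphocyte markers summed to 6.86 to 12.4 CPM on chow and 6.82 to 9.15 CPM on HSD. Red blood cell markers summed to 182 to 459 CPM on chow and 115 to 158 CPM on HSD, and of the 5 tested *Alas2* was lower with log2FC -1.14 ± 0.10. Of 9 pericentral genes, *Cyp1a2* alone was lower. The acute phase list had 1 lower gene of 21, *Itih3*, which DESeq2 did not call, and 14 genes with an unadjusted p under 0.05. The clock list had none of 14 in edgeR, where 2 had an unadjusted p under 0.05, and 2 higher in DESeq2, *Clock* and *Nr1d1*. The part of cell composition in the differences of the members was not tested.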

How the data were processed

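Per the labels and the study's methods, poly-A RNA from 9 livers was sequenced in pairs and quantified by the authors with kallisto, and the processing notes of the submitters name GRCm38. For the kallisto version and the annotation release, no source used here has a value. The authors deposited an estimated count per gene symbol, not scaled, and a TPM value, scaled for length and depth. Of the estimated counts above 0, 34.1% were whole within 1e-06, and 99.1% of these were even, so the counts were also halved as an alternative.

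Rounded counts passed filterByExpr with a minimum count of 10 and a minimum total of 15. TMM scaling and the quasi-likelihood test were run in edgeR 4.0.16 (R 4.3.3), with diet as the single factor, 7 residual degrees of freedom and Benjamini-Hochberg adjustment over 12091 genes. The biological coefficient of variation was 0.187. Standard errors are the log2 fold change divided by the root of the F statistic. No liver was a repeat of another, since the chi-square per degree of freedom between same-diet livers was 15.2 to 264 (16 pairs). The test was checked on simulated counts.

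Alternatives were DESeq2 1.42.0, limma 3.58.1 (voom, and log2 TPM with a mean of at least 1 or over all genes), other scalings, no filter, near copies summed, a replicate block, library series and single livers left out. Covariates for clock and acute phase genes and the fit without chow 1 and chow 3 were added after the values were seen. The members and gene lists were chosen with earlier results of these data known. Named members are those past the test, the 5 with the highest mean TPM and the 3 with the smallest p in each family, and every gene past the test in the cosubstrate, other conjugation, deconjugation, export and regulator lists. Of target, acute phase, clock and cell type lists, the rule names up to 2 genes past the test with the largest change. Other genes named from any list were chosen after their values were seen. Positions and shared 31-base sequences (either strand) come from GENCODE M21 on GRCm38, which held all 57 members, and promoters from RefSeq on GRCm38.p6. Promoters of *Gsta4* and *Gstt2* were not used here. The tables held 0 columns of other samples.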

Additional observations from a re-analysis of the deposited data

How the results depend on the processing

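The values as reported are 2 members higher and 6 lower, 416 genes higher and 391 lower over all genes. DESeq2 gave 10 members lower (7 Gst, 1 Ugt) and 647 and 690 genes. limma voom gave 3 lower (2 Gst, 1 Sult). With library totals, 1 Sult was lower, 254 genes were lower and 69.1% of calls were higher, against 51.5% as reported. On log2(TPM + 1) and log2(TPM + 0.1), 2 members were lower (1 Gst, 1 Sult) and 101 genes, with 82.5% and 81.6% of calls higher, and the median of all genes shifted to 0.14 and 0.16. In TPM over all genes, 0 members were higher and 1 lower (0 Gst, 1 Sult), with 243 and 51 genes and 82.7% of calls higher. With the library series as a covariate 0 members were higher and 4 lower (3 Gst, 1 Sult), with 552 genes called. The first series alone gave 0 higher and 0 lower in each family, 15 and 19 genes. With near copies summed 1 member was higher (0 Ugt). The clock covariate gave 6 higher (5 Gst) and 7 lower (1 Ugt), with 876 genes called against 807 as reported. The acute phase covariate gave 1 higher (0 Gst) and 11 lower (2 Ugt), with 916 genes called. Without chow 1 and chow 3, 13 were lower (8 Gst, 2 Ugt), with 1066 genes called. The causes were not tested.

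The 9 fits with 1 liver left out gave 0 to 2 members higher and 2 to 11 lower, Gst 0 to 1 higher and 1 to 6 lower, Ugt 0 to 1 higher and 0 to 2 lower, Sult 0 higher and 1 to 3 lower, and 153 to 475 genes higher and 149 to 493 lower. Median log2 fold changes were -0.21 to 0.01 for Gst, -0.11 to -0.01 for Ugt and -0.29 to 0.17 for Sult. Signs turned for genes outside the 8 reported calls. *Ugt2b36* was 0.016 with library totals, 0.13 in TPM and 0.0059 in the first series. *Gsta3* ranged from -0.0088 to 0.15 and *Ugt1a1* from -0.022 to 0.11 with 1 liver left out, and they were -0.072 and -0.056 with the acute phase covariate and -0.099 and -0.011 without chow 1 and chow 3. *Sult1a1* was -0.11 without these livers, *Sult1d1* -0.00019 with the acute phase covariate and *Ugt2b38* 0.15 summed with its copies.

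Chow and HSD livers share replicate numbers 1 to 4 in the labels, but same-numbered livers did not deviate together (correlations over genes of 0.05, 0.07, -0.06 and 0.04). With the replicate number as a block, 2 Gst were lower, 220 genes higher and 205 lower. Depth left 13 members untested, and with livers this few and this spread a gene that did not pass is not shown to be alike on both diets.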
